A study of Mus musculus with 16 samples.

Results

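The Lce1 genes encode late cornified envelope proteins and lie side by side in the epidermal differentiation complex. Here, 10 of them were taken by name, Lce1a1, Lce1a2, Lce1b, Lce1c, Lce1d, Lce1e, Lce1f, Lce1g, Lce1h and Lce1i, out of 23282 rows in each table, and 4 further Lce1 rows (Lce1j, Lce1k, Lce1l and Lce1m) were kept apart for comparison. The data were 3′ mRNA counts from dorsal skin of male wild-type C57BL/6N mice in 4 groups of 4 libraries. The mice were obtained at 3 weeks of age and adapted for 1 week. The Cont group was kept on normal chow. The LowAhR group received a diet poor in ligands of the aryl hydrocarbon receptor (AhR) on ligand-free paper bedding for 12 weeks. The LowAhR+AD group received that diet and, after the first 2 weeks, 1% dinitrochlorobenzene (DNCB) on the dorsal skin 2 times a week for 10 weeks, a contact sensitiser used as a model of atopic dermatitis (AD). The LowAhR+AD+BJ group was treated in the same way and was also given BJIKT, a herbal prescription, by mouth at 1 g/kg a day. No group received DNCB on normal chow, so the effect of DNCB and its interaction with the diet cannot be told apart, and a vehicle given to Cont or LowAhR was not stated in the sources used here. Each library is labelled as a separate sample of its group.

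The cornified envelope is the protein shell that replaces the plasma membrane of keratinocytes as they reach the skin surface. Its proteins, among them loricrin, the small proline-rich proteins and the late cornified envelope proteins, are joined by transglutaminases, and the genes are transcribed late in differentiation, in the granular layer. Lce1 and Lce2 genes are known as genes of undisturbed adult skin, whereas Lce3 genes are known to be induced when the barrier is injured. AhR is a ligand-activated transcription factor whose activity promotes late epidermal differentiation.

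In the mouse genome build GRCm38 the 10 genes occupy 132 kb of chromosome 3, chr3:92646535-92778899. Of these genes 9 are on the minus strand and 1, Lce1c, is on the plus strand. By the GENCODE annotation each has 2 exons, and the whole coding sequence, between 399 and 447 bases long, lies in the second. The coding sequences are alike: over the 45 pairs of genes the identity had a median of 86.7% and reached 95.7% for Lce1c and Lce1f. The last 200 bases of the transcripts, which a 3′ library reads, were less alike, with a median identity of 54.3% and a highest of 92.1% for Lce1h and Lce1i. Exact sharing near the 3′ end was limited. Among windows of 75 bases within the last 300 bases of each transcript, none was shared with another gene's transcript for Lce1a2, Lce1f, Lce1g, Lce1h and Lce1i. The shares were 16.4% for Lce1b, 9.73% for Lce1d, 8.85% for Lce1e, 6.19% for Lce1a1 and 2.65% for Lce1c. For these genes part of the reads could have been counted for a neighbour. Windows that were alike but not identical were not counted.

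The first 48 coding bases are shown for the 4 members whose share of the Lce1 counts is described in detail, because they show how close the genes are. Capitals mark bases that differ from the most common base among the 10 members, and 36 of the 48 positions were the same in all 10. The sequences are from GENCODE transcripts of GRCm38.
Lce1a1: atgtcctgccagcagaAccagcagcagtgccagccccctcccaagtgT
Lce1c: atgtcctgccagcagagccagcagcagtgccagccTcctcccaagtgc
Lce1f: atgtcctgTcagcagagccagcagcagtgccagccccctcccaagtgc
Lce1g: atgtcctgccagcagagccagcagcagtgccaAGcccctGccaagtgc

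Promoters of 9 of the 10 members were matched in the RefSeq table of GRCm38.p6, each a window of 300 bases with 250 before the start of transcription, and Lce1f was not matched. Their identity over 36 pairs had a median of 67.5%, with 86.0% for Lce1g and Lce1i as the highest. The run AAAAGG was held by all 9, and began 26 or 27 bases before the start in each. Of all 32851 promoters of this length 20.6% held it anywhere in the window, on either strand. The AhR core GCGTG was found on either strand in 1 of the 9, Lce1c, and in 32.4% of all promoters. The ETS core CTTCCT was found in 7 of the 9 and in 35.4% of all, and the AP-1 motif TGANTCA in 0 of the 9 and in 7.81% of all. TATAAA was found in 1 of the 9, Lce1d, and in 13.6% of all. The TATA-like run ATAAAA was found in 8 of the 9, all but Lce1a1, and in 18.5% of all. A match in these letters is a description and not a site, and these rates are not a test of enrichment. The longest run common to all 9 windows was GATCTTG, of 7 bases. It lay after the start of transcription, and 3.07% of all promoters held it on either strand. The 100 bases before the start are shown for 3 members, with AAAAGG in capitals, because all 9 hold this run at nearly the same place.
Lce1a1 (chr3:92648308-92648407, minus strand): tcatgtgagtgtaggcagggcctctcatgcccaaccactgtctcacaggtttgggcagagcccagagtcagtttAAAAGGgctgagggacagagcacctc
Lce1c (chr3:92679147-92679246, plus strand): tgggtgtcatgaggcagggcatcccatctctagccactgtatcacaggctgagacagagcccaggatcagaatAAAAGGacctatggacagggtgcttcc
Lce1g (chr3:92752339-92752438, minus strand): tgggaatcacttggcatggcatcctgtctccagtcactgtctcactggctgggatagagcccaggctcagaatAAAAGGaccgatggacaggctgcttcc

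The libraries held between 7080508 and 13467477 counts. Those without DNCB held 7080508 to 8773876 and those with DNCB 10614393 to 13467477, without overlap. Depth thus goes with DNCB, and its part in the values was not tested. The filter on low counts was passed by 14854 rows. All 10 members passed it and had counts in every library, from 15 to 36384. Levels are given as CPM, the count of a row scaled to the library's total after correction by a TMM factor. Since a 3′ library yields about 1 fragment per transcript whatever its length, CPM were compared between genes as levels per transcript. LowAhR+AD replicate 1 had few rows detected for its depth: 37.4% of rows predicted at 20 to 40 counts had none there, against 0.655% to 13.7% in the other 15 libraries. LowAhR+AD replicate 3 stood apart in the members themselves, as described below. The skin label was borne out by keratins: Krt14 and Krt5 of the basal layer and Krt10 and Krt1 of the suprabasal layers were read in every library. In bulk skin, fewer cells of a type and less RNA per cell cannot be told apart.

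In control skin the members differed widely in level. Lce1a1 was read at 1894 ± 511 CPM (SD, n = 4 in this and the following group means), above every other member in all 4 libraries. Lce1c at 490 ± 18.8 CPM, Lce1b at 466 ± 49.99 CPM and Lce1a2 at 455 ± 27.0 CPM came next and overlapped one another. Lce1d followed at 247 ± 54.1 CPM and Lce1i at 166 ± 16.5 CPM. Lce1h at 120 ± 16.8 CPM and Lce1e at 117 ± 7.38 CPM did not differ beyond their spread, and neither did Lce1f at 83.0 ± 24.1 CPM and Lce1g at 68.9 ± 12.2 CPM, the lowest of the 10. Levels thus spanned a wide range along the cluster although the coding sequences are alike.

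The summed level of the 10 members was even among control mice and very uneven after DNCB. In Cont it was 4903, 3676, 4076 and 3774 CPM in replicates 1 to 4. In LowAhR it was 4381, 4185, 3877 and 2584 CPM, so that the groups overlapped and replicate 4 was the lowest. In LowAhR+AD it was 158, 1995, 11513 and 731 CPM, a 72.8-fold range, with replicate 3 above every library of the study and the other 3 below every Cont and LowAhR library. In LowAhR+AD+BJ it was 483, 2910, 3085 and 3280 CPM, with replicate 1 far below the rest. The group means were 4107 ± 557 CPM in Cont, 3757 ± 809 CPM in LowAhR, 3599 ± 5331 CPM in LowAhR+AD and 2440 ± 1313 CPM in LowAhR+AD+BJ. Without replicate 3 the LowAhR+AD mean was 961 ± 940 CPM (n = 3).

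**Figure D1:**
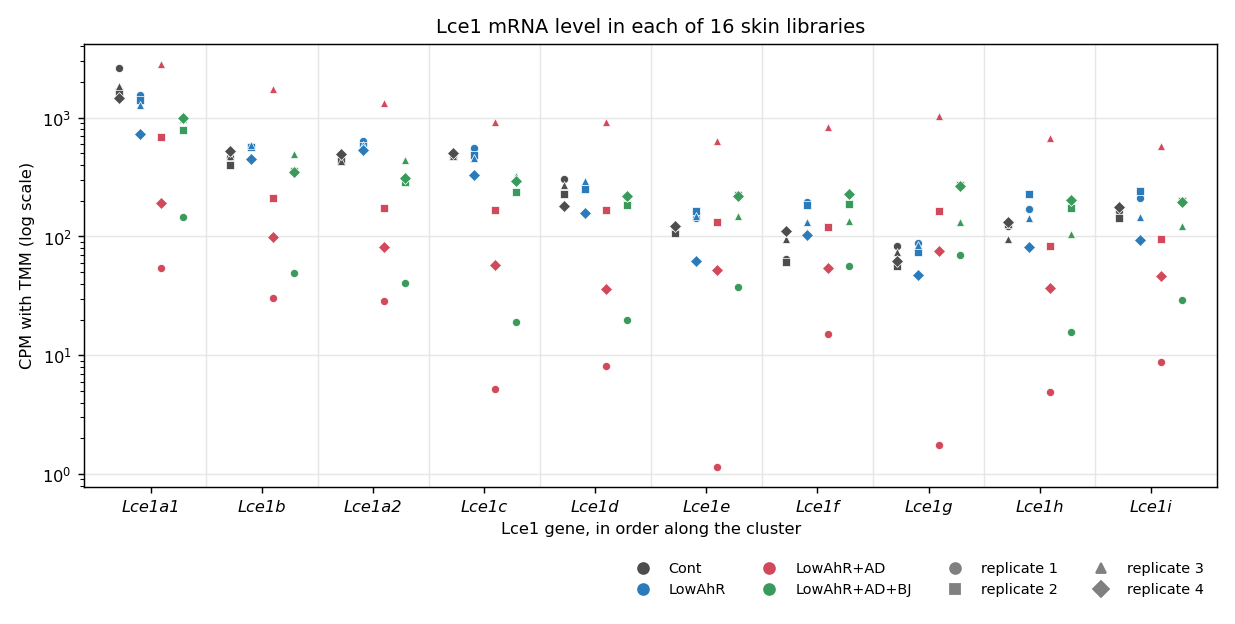
CPM of each of the 10 Lce1 genes (log axis) in each library, with genes in order along the cluster, colours for groups and marker shapes for replicates. In every gene the LowAhR+AD group has replicate 3 at its top and replicate 1 at its bottom, and the Cont libraries lie close together.

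The spread was a property of all 10 genes. The SD of log2 CPM between mice had a median over the members of 0.19 in Cont, 0.42 in LowAhR, 2.70 in LowAhR+AD and 1.42 in LowAhR+AD+BJ, beside medians over all tested rows of 0.46, 0.49, 0.61 and 0.46. Over the 3624 rows with a mean of at least 50 CPM, nearer to the members in level, these medians were 0.24, 0.29, 0.40 and 0.29. In LowAhR+AD the highest library exceeded the lowest by between 46.8-fold, for Lce1a2, and 588-fold, for Lce1g. Lce1g was read there at 1.76, 164, 1032 and 74.9 CPM in replicates 1 to 4, of which the first rests on 23 counts. Lce1a1 was read at 54.4, 683, 2828 and 191 CPM in the same libraries. For both genes replicate 3 was above, and replicate 1 below, every library of Cont and LowAhR. Over the 16 libraries the 45 pairs of members had a median Pearson correlation of log2 CPM of 0.92. This was 0.57 over the 8 libraries without DNCB and 0.97 over the 8 with it. The points share libraries and depth, and these values are descriptions.

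The keratins of the suprabasal layers, in which keratinocytes differentiate, were uneven in the same libraries. The summed level of Krt1, Krt10, Krt2 and Krt77 was 146, 512, 7517 and 404 CPM in LowAhR+AD and 69.2, 1616, 1554 and 2559 CPM in LowAhR+AD+BJ, against 2427 to 3341 CPM in Cont and 2125 to 3699 CPM in LowAhR. The libraries at the top and bottom of LowAhR+AD were the same for these keratins and for Lce1, and so was the lowest of LowAhR+AD+BJ. Summed markers of the basal layer had another order in LowAhR+AD, 10610, 5989, 5514 and 7078 CPM, with replicate 1 highest and replicate 3 lowest. The stress keratins Krt6a, Krt6b, Krt16 and Krt17 summed to 19814, 32999, 11012 and 22000 CPM there, with replicate 3 again lowest. Summed markers of skeletal muscle were lowest of the study in LowAhR+AD replicate 3, at 633 CPM, with 3439 to 5611 CPM in the other 3 libraries and 11060 to 19577 CPM in Cont. Summed fibroblast markers were 3898, 12192, 22600 and 9938 CPM in LowAhR+AD and 27692 to 69550 CPM in Cont. Hair follicle markers were 7570 to 37793 CPM in LowAhR+AD, 12.7 to 1076 CPM in Cont and 107 to 13731 CPM in LowAhR, where replicate 4, the library lowest in Lce1, was the highest. The part of tissue composition in the Lce1 values was not tested.

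**Figure D2:**
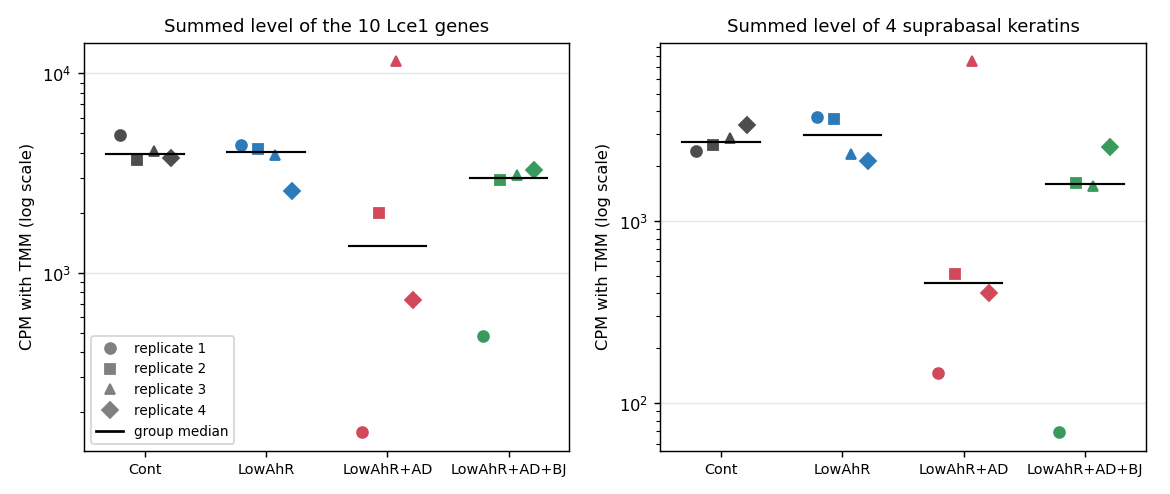
Summed CPM (log axes) of the 10 Lce1 genes, left, and of the suprabasal keratins Krt1, Krt10, Krt2 and Krt77, right, in each library, with shapes for replicates and a line at each group's median. LowAhR+AD replicate 3 is the highest and replicate 1 the lowest of its group in both panels, at 11513 and 158 CPM for Lce1.

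The first comparison asks what the low-ligand diet, given with ligand-free bedding, did without DNCB, LowAhR against Cont. Diet and bedding changed together and cannot be told apart. No member passed an adjusted p of 0.05 in edgeR's quasi-likelihood fit, 0 had an unadjusted p under 0.05 beside 13.7% of all tested rows, and 0% of tested rows passed in either direction. The fitted log2 fold changes of the members had a median of 0.13, beside 0.03 over all tested rows. They ran from -0.61 ± 0.77 (SE) for Lce1a1 to 0.88 ± 0.76 for Lce1f, with adjusted p-values from 0.670 to 0.991. These SEs come from a fit that pools the spread of all 4 groups. With only the 8 libraries compared, 3 members had an unadjusted p under 0.05 beside 17.8% of 13574 rows: Lce1f at 0.88 ± 0.26 (adjusted p = 0.0904), Lce1a1 at -0.61 ± 0.25 (adjusted p = 0.222) and Lce1a2 at 0.36 ± 0.16 (adjusted p = 0.239). None of the 10 was called there, while 250 rows were. In CPM, Lce1a2 was read at 458, 436, 436 and 493 in Cont and at 633, 583, 595 and 537 in LowAhR. It was the 1 member whose groups did not overlap (exact two-sided permutation test of log2 CPM, p = 0.0286, the smallest 4 against 4 allows), and 5.68% of all tested rows were higher without overlap, as 5.63% were lower.

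The second comparison asks what DNCB did on the low-ligand diet, LowAhR+AD against LowAhR. No member passed the threshold, while 6.42% of tested rows were called higher and 6.21% lower. The unadjusted p was under 0.05 for 1 member, beside 28.1% of all tested rows. It was Lce1g, at 2.11 ± 0.93 on the log2 scale (adjusted p = 0.145), and without LowAhR+AD replicate 3 it was at 0.13 ± 0.74 (adjusted p = 0.933). The lowest fold change was that of Lce1c, -0.67 ± 0.90. SEs of the members were between 0.75 and 0.93, beside a median of 0.42 over all tested rows. No member's groups were without overlap in CPM, where 8.92% of tested rows were higher and 9.85% lower, and the exact permutation p-values ran from 0.143 to 1.

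The measure used for the mean decided the sign here. By the fit, which follows mean counts, 6 members had a positive and 4 a negative log2 fold change, with a median of 0.16. By the difference of mean log2 CPM, all 10 were negative, with a median of -1.43. LowAhR+AD replicate 3 carried the group mean: Lce1b was read at 30.1, 211, 1743 and 98.6 CPM in LowAhR+AD and at 583, 565, 593 and 445 CPM in LowAhR, so that 3 libraries were below and 1 above the whole LowAhR group. Without that library, 3 members were called lower, Lce1a2 at -2.62 ± 0.60 (adjusted p = 0.00951), Lce1b at -2.27 ± 0.60 (adjusted p = 0.0204) and Lce1c at -2.59 ± 0.83 (adjusted p = 0.0472), and 6.43% of the rows tested then were called lower. In CPM, 4 members, Lce1a1, Lce1b, Lce1a2 and Lce1c, then lay below LowAhR without overlap, as did 13.0% of all tested rows. Without LowAhR+AD replicate 1, the library with few rows detected, Lce1g was called higher at 2.51 ± 0.61 (adjusted p = 0.0140), as were 5.34% of the rows tested then.

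Against Cont, the comparison that joins the diet and DNCB, the LowAhR+AD group gave values of the same kind, and both comparisons share the LowAhR+AD libraries. No member was called, with 12.3% of tested rows called higher and 9.47% lower. Unadjusted p-values were under 0.05 for 2 members, beside 34.1% of all tested rows, Lce1f at 1.62 ± 0.77 (adjusted p = 0.146) and Lce1g at 2.21 ± 0.93 (adjusted p = 0.1003). Without LowAhR+AD replicate 3 these were -0.40 ± 0.51 (adjusted p = 0.637) and 0.22 ± 0.74 (adjusted p = 0.871). The lowest fold change was that of Lce1a1, -1.01 ± 0.77. None of the members was without overlap in CPM, where 12.9% of tested rows were higher and 11.8% lower. Without LowAhR+AD replicate 3, 4 members were called lower, Lce1a1 at -2.61 ± 0.69 (adjusted p = 0.0139), Lce1a2, Lce1b and Lce1c, beside 8.50% of rows. In CPM 7 members, all but Lce1e, Lce1f and Lce1g, then lay below Cont without overlap, beside 14.1% of rows. Without replicate 1, Lce1f (adjusted p = 0.0282) and Lce1g (adjusted p = 0.00525) were called higher, beside 12.6% of rows. Lce1a1, Lce1b, Lce1a2 and Lce1c are the first 4 genes of the cluster, and Lce1f and Lce1g are the seventh and eighth. The lower calls came only after the group's highest library in every member was left out, and the higher calls only without its lowest. The direction of these calls thus goes with the library left out, and a pattern along the cluster was not tested.

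**Figure D3:**
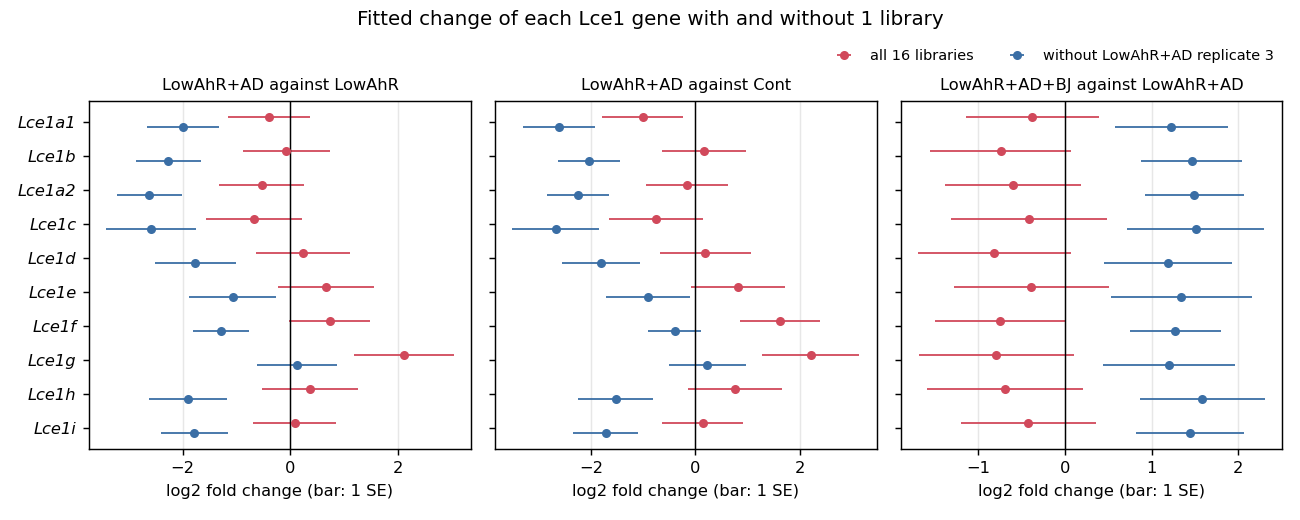
Fitted log2 fold change with 1 SE of each Lce1 gene, in order along the cluster, from all 16 libraries (red) and without LowAhR+AD replicate 3 (blue), for 3 comparisons. Leaving out that library moved Lce1b from -0.07 to -2.27 in the left panel, and turned all 10 genes from negative to positive in the right panel.

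The comparison of BJIKT-treated with untreated DNCB mice, LowAhR+AD+BJ against LowAhR+AD, gave 0 members called and 0 with an unadjusted p under 0.05 beside 9.46% of all tested rows, and 0% of all tested rows passed in either direction. By the fit all 10 members were negative, from -0.81 ± 0.88 for Lce1d to -0.37 ± 0.77 for Lce1a1, with a median of -0.64. By the difference of mean log2 CPM all 10 were positive, with a median of 0.62. Without LowAhR+AD replicate 3 the fitted median was 1.39, 5 members had an unadjusted p under 0.05 beside 12.0% of the rows tested then, and 0 were called. Lce1d was read at 8.09, 166, 915 and 36.5 CPM in LowAhR+AD and at 19.7, 183, 220 and 218 CPM in LowAhR+AD+BJ, and the groups overlapped in this and every other member. Among all tested rows 2.42% were higher and 2.65% lower without overlap. Both measures were within the spread between libraries.

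BJIKT-treated DNCB mice were also set against LowAhR mice without DNCB, a comparison that shares its LowAhR libraries with the second. No member was called, with 3.64% of tested rows called higher and 3.12% lower, and 0 had an unadjusted p under 0.05 beside 22.2% of all tested rows. With only the 8 libraries compared 2 members had one, Lce1g at 1.30 ± 0.38 (adjusted p = 0.0557) and Lce1a2 at -1.16 ± 0.49 (adjusted p = 0.163), and 0 were called. Of the 10, 8 were negative by the fit, from -1.13 ± 0.79 for Lce1a2 (adjusted p = 0.449), while Lce1g had the highest value, 1.33 ± 0.91 (adjusted p = 0.436). Lce1a2 was read at 40.7, 287, 437 and 308 CPM in LowAhR+AD+BJ, and Lce1c at 18.9, 237, 322 and 291 CPM there against 561, 489, 462 and 331 CPM in LowAhR. These 2 members were below LowAhR without overlap (exact two-sided permutation p = 0.0286 for each), as were 8.19% of all tested rows, and 8.91% were above. Over the 5 comparisons, DESeq2 and limma voom also called 0 members, with no adjusted p from DESeq2 for 3 of them, Lce1b, Lce1a2 and Lce1c.

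The make-up of the Lce1 counts is a ratio within a library. For some members the groups did not overlap in this ratio where they did in level. Each member's counts were taken as a percent of the summed counts of the 10. The shares add up to 100%, so they are not independent of one another. Over 10 members and 5 comparisons, 50 exact permutation tests were run, and 12 gave the smallest p possible, 0.0286, which cannot pass a correction over 50 tests. No such shares were computed for other rows, so the count of 12 has no background rate beside it.

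Lce1a1 held the largest share in each group, and a smaller one in LowAhR than in Cont. It made up 53.5%, 44.6%, 45.4% and 38.7% of the Lce1 counts in Cont and 35.3%, 33.5%, 32.9% and 28.2% in LowAhR, without overlap. The counting intervals of these shares are narrow: for Cont replicate 4 the 95% Wilson interval was 38.2% to 39.2%. With DNCB its share was 29.8% ± 5.23 (SD, n = 4) in LowAhR+AD and 29.8% ± 1.90 in LowAhR+AD+BJ. The share of Lce1f had the opposite order. It was 2.07% ± 0.718 in Cont, 4.05% ± 0.489 in LowAhR and 7.56% ± 1.51 in LowAhR+AD, each without overlap with the one before, and 7.36% ± 3.05 in LowAhR+AD+BJ. Lce1a2 was higher in LowAhR than in Cont without overlap, at 16.1% ± 3.15 and 11.2% ± 1.60.

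Lce1c, the member on the plus strand, held a smaller share in both DNCB groups. It was 12.1% ± 1.43 in Cont and 12.3% ± 0.591 in LowAhR. In LowAhR+AD it was 3.28%, 8.34%, 8.05% and 7.88%, and in LowAhR+AD+BJ 3.91%, 8.16%, 10.4% and 8.86%. Both DNCB groups lay below LowAhR without overlap, and LowAhR+AD also below Cont. LowAhR+AD replicate 3, the library with the most Lce1 mRNA, and replicates 2 and 4 had shares of Lce1c within 1 percentage point of each other.

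Lce1g, the lowest member in control skin, had an even share there, 1.67% ± 0.118 in Cont and 1.95% ± 0.186 in LowAhR. In LowAhR+AD it was 1.11%, 8.23%, 8.96% and 10.2%, and in LowAhR+AD+BJ 14.5%, 9.28%, 4.27% and 8.11%. LowAhR+AD+BJ was above LowAhR without overlap. LowAhR+AD was not, through replicate 1, whose share rests on 23 counts (95% Wilson interval 0.741% to 1.66%) and which lies below all other libraries. Without replicate 1 the LowAhR+AD mean was 9.15% ± 1.02 (n = 3), above LowAhR without overlap, as were Lce1e and Lce1f. Lce1e was above LowAhR without overlap in LowAhR+AD+BJ, at 6.74% ± 1.35 against 3.37% ± 0.716, and Lce1i above Cont in LowAhR+AD, at 5.45% ± 0.719 against 4.10% ± 0.596. Shares of the members did not set LowAhR+AD and LowAhR+AD+BJ apart for any gene.

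**Figure D4:**
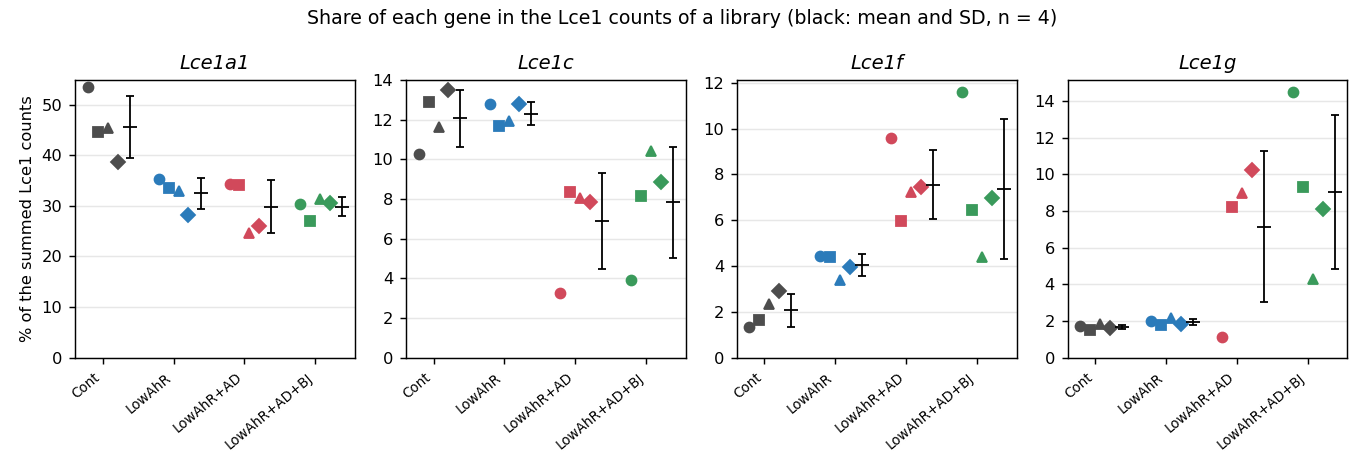
Share of Lce1a1, Lce1c, Lce1f and Lce1g in the summed Lce1 counts of each library (percent, axes from 0), with shapes for replicates (circle 1, square 2, triangle 3, diamond 4) and black bars for the mean and SD of 4 libraries. Lce1a1 is lower in LowAhR than in Cont, Lce1c is lower in both DNCB groups than in LowAhR, and Lce1g is near 2% without DNCB and higher with it except in LowAhR+AD replicate 1, at 1.11%.

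The rest of the late cornified envelope family and its partners give the setting. Of the 4 other Lce1 genes 0 were called in any comparison. Lce1m, at the far end of the family, was read at 1346, 1354, 734 and 772 CPM in LowAhR and at 1.76, 13.9, 378 and 17.8 CPM in LowAhR+AD. Its groups did not overlap (exact permutation p = 0.0286), and 9.85% of all tested rows were likewise lower without overlap. Its log2 fold change was -3.35 ± 1.18 (adjusted p = 0.0686). Of the 7 Lce3 and Lce6 genes, 6 rose in LowAhR+AD against LowAhR, 6 in LowAhR+AD against Cont and 6 in LowAhR+AD+BJ against LowAhR. Of all tested rows 6.42%, 12.3% and 3.64% were called higher in these comparisons, in that order. Lce3c rose by 3.13 ± 0.80 in the first of these (adjusted p = 0.0162) and was read at 26.0, 459, 526 and 200 CPM in LowAhR+AD against 5.41 to 78.6 CPM in LowAhR. Lce3d rose by 4.21 ± 0.97 (adjusted p = 0.00965) and Lce3a by 4.05 ± 1.18 (adjusted p = 0.0317), while Lce6a was at -0.00 ± 0.81.

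Of 15 genes of other structural proteins of the envelope, 0 rose and 1 fell in LowAhR+AD against LowAhR, and 1 rose and 4 fell against Cont. Among all tested rows 6.42% were called higher and 6.21% lower against LowAhR, and 12.3% higher and 9.47% lower against Cont. Apart from the 4 highest in mean level of each list, the genes of the envelope, enzyme and regulator lists are named here after their calls were seen. Rptn (repetin) rose against Cont, and Lor, Kprp and Ppl (periplakin) were among those that fell. Lor, which encodes loricrin, fell against Cont at -2.58 ± 0.73 on the log2 scale (adjusted p = 0.0170). Against LowAhR it was at -1.52 ± 0.70 and was not called (adjusted p = 0.164). It was read at 222, 718, 3132 and 289 CPM in LowAhR+AD. In LowAhR it was at 1536 to 4019 CPM, already below the 4943 to 8617 CPM in Cont. Of 10 genes of enzymes that build or trim the envelope, 2 rose and 0 fell against LowAhR, Tgm3, a transglutaminase, and Sult2b1, a cholesterol sulfotransferase. Against Cont 3 of the 10 rose and 2 fell. Of 13 regulators of late differentiation, 3 rose against LowAhR, Zfp750, Tfap2a and Ovol1, and 1 fell. Klf4, a transcription factor needed for the barrier, was the one that fell, at -0.90 ± 0.25 (adjusted p = 0.0230), with 199, 386, 451 and 280 CPM in LowAhR+AD against 546 to 724 CPM in LowAhR. Against Cont 2 of the 13 rose, Tfap2a and Ovol1, and 4 fell, Klf4, Gata3, Pou2f3 and Ahr. Ahr, the gene of the receptor itself, was at -1.73 ± 0.38 against Cont (adjusted p = 0.00356) and at -0.98 ± 0.37 against LowAhR, where it was not called (adjusted p = 0.0888). Among the genes named by level, Krtdap, Cst6, Crct1, Klk7, Asprv1, Klk5, Casp14, Grhl1 and Hopx were not called against LowAhR. Against Cont only Klk7 of these was called, higher at 1.35 ± 0.35 (adjusted p = 0.0104). All 4 stress keratins rose (Krt6a, Krt6b, Krt16 and Krt17), and of the 4 suprabasal keratins Krt2 and Krt77 fell.

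The 10 genes most like the members were found by the Pearson correlation of log2 CPM with the mean of the members over 16 libraries, among 9379 other rows with a mean of at least 10 CPM. They were Lce1j at 0.977, Lce6a at 0.964, Fam25c, Slurp1, Calm4, Csta1, Klk5, 2300005B03Rik, Lce1l and, last, Krt10 at 0.919. Calm4 was read at a mean of 2704 CPM and Fam25c at 1339 CPM. With the 8 libraries without DNCB alone 1 of the 10 remained, Calm4, and with the 8 DNCB libraries alone 3 remained. With Spearman's rho 7 of the 10 remained.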

How the data were processed

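The authors sequenced 3′ mRNA libraries (Lexogen QuantSeq) of total RNA from dorsal skin and deposited 1 table of raw counts per gene for each of 16 libraries. The submitters' processing notes name Bowtie2, bedtools and the mm10 build, with no versions. Totals ran from 7080508 to 13467477 counts. The tables held 23282 rows, 0 rows without a gene name and 0 other per-sample columns. Rows were filtered with filterByExpr (minimum count 10), scaled by TMM and fitted over all 16 libraries with edgeR 4.0.16 quasi-likelihood tests, with Benjamini-Hochberg adjustment over 14854 rows, after a test on simulated data. Alternatives used DESeq2 1.42.0, limma 3.58.1 voom, other filters and scalings and each library left out. Single genes were compared by two-sided exact permutation tests of mean log2 CPM or of shares in percent. Intervals of shares cover counting error only. The labels give no cage or run, and p-values measure the spread between these samples. Sequences were read with Python 3.11.15 and aligned with Biopython 1.88. The naming rule covered the members, the 4 highest of each gene list and the 10 rows most like the members. For cell type markers not every gene under this rule is printed. Genes of the envelope, enzyme and regulator lists outside this rule, among them Ahr, were named after their calls were seen. The members and lists were chosen with earlier results of these data known.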

Additional observations from a re-analysis of the deposited data

Results flagged for a closer look

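Dixon's rule was applied to 84 groups of 4 libraries (10 members in CPM and as shares, and the summed level), without taking logarithms. Chance gives about 1 in 20 for a single group. The groups are not independent, since the members vary together and make up the sum, so a count of groups cannot be set against that rate. Of the 84 groups, 10 held a library whose gap to the nearest other library exceeded the 95% critical value. Of these, 7 were LowAhR+AD replicate 3 at the top of its group: 1743 CPM for Lce1b, 1336 CPM for Lce1a2, 831 CPM for Lce1f, 1032 CPM for Lce1g, 682 CPM for Lce1h, 582 CPM for Lce1i and 11513 CPM for the sum, where the next library was at 1995 CPM. The summed level of LowAhR+AD+BJ replicate 1, at 483 CPM, lay below 2910 CPM in the nearest library. The share of Lce1c in LowAhR+AD replicate 1 was 3.28%, against 7.88% in the nearest library. The share of Lce1d in LowAhR replicate 3 was 7.60%, against 6.06% in the nearest library.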

How the results depend on the processing

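The number of members called was 0 in each of the 5 comparisons under RLE factors, DESeq2, limma voom, both other filters, the 8 libraries alone, library sizes without marker genes and the replicate block. Leaving out 1 library gave 0 to 3 members called in LowAhR+AD against LowAhR and 0 to 4 in LowAhR+AD against Cont. In the remaining 3 comparisons it gave 0 throughout.

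With limma voom the median log2 fold change of the members was -1.44 in LowAhR+AD against LowAhR, -1.33 in LowAhR+AD against Cont and 0.62 in LowAhR+AD+BJ against LowAhR+AD, each opposite in sign to the edgeR fit. In voom Lce1g was at -0.058 in the first, and Lce1d at 0.49 and Lce1a1 at 0.62 in the last. Same-numbered libraries are labelled by number only, and 3 of 20 pairs had deviations correlated over 0.1 (-0.05 to 0.17). With the replicate block the same medians were -0.75, -0.77 and 0.057, and Lce1a1 was at 0.21 in the last, with 0 calls changed. Leaving out 1 library moved these medians between -1.84 and 0.55, between -1.77 and 0.56 and between -1.05 and 1.39, with LowAhR+AD replicate 3 at the far end of each. In LowAhR+AD against LowAhR Lce1b ranged from -2.27 to 0.31. In the last Lce1d ranged from -1.23 to 1.19 and Lce1a1 from -0.77 to 1.23. The cause was not tested. Without TMM the summed level stayed within 1 SD in each group. Counts without LowAhR+AD replicate 1 or 3 of groups that did not overlap were chosen after seeing the data. The lowest member count, 15, was in LowAhR+AD replicate 1.

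Over all rows, calls in LowAhR against Cont were 0, but 491 with DESeq2, 250 with the 8 libraries alone, 45 with at least 10 counts in every library and 159 without LowAhR replicate 2. In LowAhR+AD against LowAhR they were 1876, but 2673 with DESeq2 and 765 with the 8 libraries alone. Leaving out a LowAhR library gave as few as 1128 there. Calls in LowAhR+AD against Cont were 3233, but 3886 with DESeq2 and 2351 with the 8 libraries alone. In LowAhR+AD+BJ against LowAhR+AD they were 0, but 17 with DESeq2, and against LowAhR 1005, but 1676 with DESeq2 and as few as 414 with a library left out.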
